A study of Homo sapiens with 6 samples.

Results

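A list of 10 genes of the epithelial cytoskeleton and its junctions is described here in HK-2 cells, an immortalised proximal tubule line of the human kidney. The members were listed by name, with earlier results of these data known, and matched by symbol. All 10 were found among the 38126 Ensembl gene IDs of the files. The list holds 6 keratins (KRT7, KRT8, KRT18, KRT19, KRT80 and KRT81), vimentin (VIM), stratifin (SFN), desmocollin 3 (DSC3) and plakoglobin (JUP). RNA-seq was done on 3 libraries labelled untreated and 3 from cells exposed to phosphoramidon, an inhibitor of zinc metallopeptidases, for 24 h. Both groups share the line, a serum-free keratinocyte medium with EGF and pituitary extract, and the 24 h time in their titles. Titles of the untreated libraries hold the letters CSE, which nothing in the labels explains, and no dose or vehicle is given. A single immortalised line was used. Nothing says that the replicates were separate cultures, so p-values reflect only how far these 6 libraries scatter, and that scatter may be technical.

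Keratins are the intermediate filament proteins of epithelia. Each filament needs a type I partner (here KRT18 and KRT19) and a type II partner (KRT7, KRT8, KRT80 and KRT81). Vimentin, a type III filament protein, is typical of mesenchymal cells and also appears in cultured or injured tubule cells. Keratin filaments are anchored at desmosomes, where desmosomal cadherins such as DSC3 bind plakoglobin, which in turn binds desmoplakin. Stratifin, or 14-3-3 sigma, is the epithelial member of the 14-3-3 family of phosphoprotein-binding adaptors, and keratins are among its known partners.

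All 10 genes fell after phosphoramidon. KRT7 and KRT19 fell furthest, to 39.2% and 44.5% of the untreated level in the fit, SFN and KRT81 to 58.9% and 58.1%, and KRT8, KRT18 and KRT80 to between 67.7% and 71.6%. VIM, JUP and DSC3 fell least, to 75.6%, 75.8% and 78.3%. The test was limma on log2(FPKM + 0.1) over 16175 genes with Benjamini-Hochberg adjustment, and it called 32.8% of tested genes at an adjusted p under 0.05, 16.7% lower and 16.1% higher. With library factors 2598 genes were higher and 2704 lower, whereas undivided FPKM gave 3647 and 2169. The median log2 fold change was -0.54 over the 10 genes and 0.02 over all tested genes. No value of any of the 10 genes overlapped between the groups, and 18.4% of tested genes showed that pattern in the same direction (49.7% in either direction). The genes were chosen with earlier results of these data known, so these counts are a description. In bulk RNA, fewer cells of a type and less RNA per cell cannot be told apart.

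**Figure D1:**
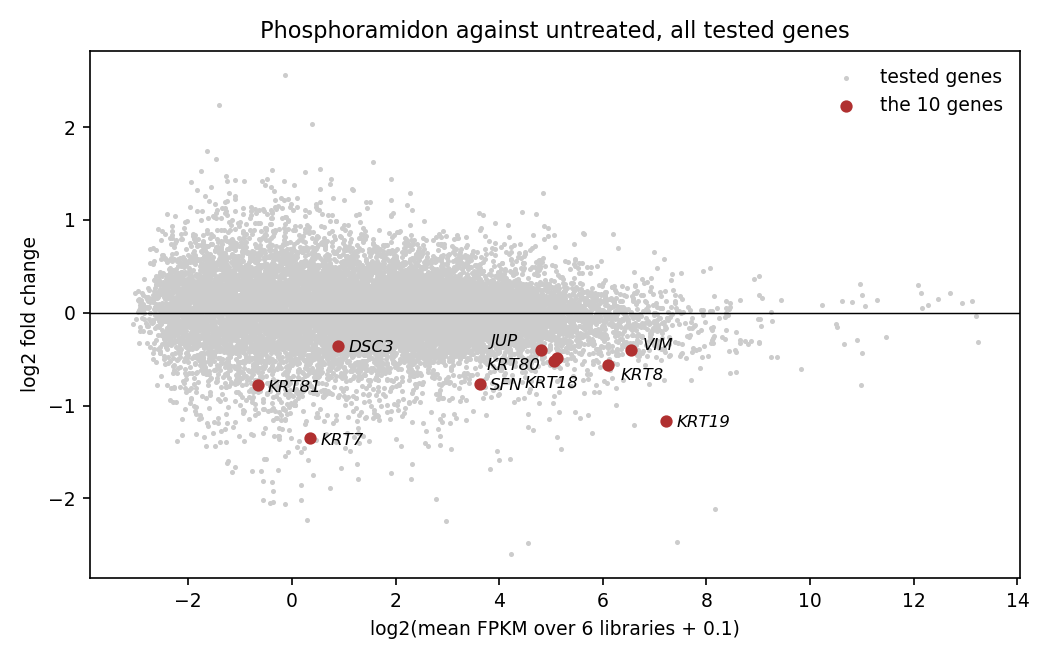
Log2 fold change (phosphoramidon against untreated, y axis) of every tested gene against its mean level (log2 of FPKM + 0.1, x axis), with the 10 genes in red. All 10 lie below 0, with KRT19 the most abundant of them and KRT7 the lowest in fold change.

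Per library, 18690141 to 24919560 fragments were assigned to genes, as recovered from the step of the FPKM values (fragments scaled to gene length and to library total). The step of a single fragment, for a gene 1 kb long, was 0.0401 to 0.0535 FPKM. PAX8, a renal epithelial transcription factor, was high at 63.7 ± 1.91 FPKM in untreated cells (SD, n = 3 here and below). Other markers of the proximal tubule were at or near 0: LRP2 reached 0.00635 FPKM at most, CUBN 0.0665 and HNF4A 0.00551, and SLC22A6 and SLC22A8 were listed at 0 in all 6 libraries. Of the 15 proximal tubule markers 6 were tested, with 0 higher and 2 lower (16.1% and 16.7% over all tested genes). Those lower were SLC34A1 (-0.80) and GGT1 (-0.61), both under 1 FPKM on average. Without untreated replicate 2 both calls were lost (limma adjusted p = 0.0588 and 0.0736), and GGT1 also without phosphoramidon replicate 1 (adjusted p = 0.059), where ALPL was called lower (-0.75, limma adjusted p = 0.0481). Markers of stratified epithelium were mixed. The 7 basal and stratified keratinocyte markers in the files summed to 5.45 to 5.88 FPKM in untreated and 5.82 to 6.55 FPKM in treated libraries, mostly KRT10, with KRT15 at 0.740 ± 0.0174 and COL17A1 at 0.341 ± 0.0404 FPKM in untreated cells. KRT5, IVL, SPRR3, CRNN and SERPINB5 were listed at 0 throughout, TP63 reached 0.0273 FPKM, KRT1 0.0205 and DSG3 0.00959. Of genes of squamous differentiation S100A2, DMKN and SBSN, described further on, were present, at 27.3, 6.97 and 1.38 FPKM in untreated cells. The word squamous is used here only for where some of the genes are best known.

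KRT19, a type I keratin of ducts and injured tubules that lacks the usual tail domain, was the most abundant of the 10 genes in the deposited FPKM. It read 215, 205 and 189 FPKM in untreated replicates 1 to 3 and 100.5, 92.0 and 90.1 FPKM in phosphoramidon replicates 1 to 3. The lowest untreated library thus lay well above the highest treated one. Group means were 203 ± 13.1 and 94.2 ± 5.51 FPKM. The log2 fold change was -1.17 ± 0.07 (SE), and limma gave it an adjusted p = 1.19e-05. Only 0.686% of tested genes had a lower fold change, and 1.17% of tested genes were called with a log2 fold change below -1.

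KRT7, a type II keratin of simple ductal epithelium, was scarce. Its untreated libraries read 1.68, 1.80 and 1.66 FPKM and its treated ones 0.669, 0.562 and 0.690 FPKM, which stood for 158 to 175 and for 50 to 56 fragments. The groups lay far apart for so low a gene. The log2 fold change was -1.35 ± 0.12 (SE), with a 95% interval from -1.62 to -1.08 and limma adjusted p = 7.75e-05. At this level the pseudocount sets the size: with 1 in place of 0.1 the log2 fold change was -0.76, and with voom, on recovered fragments, it was -1.50.

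KRT8 and KRT18 are the obligate type II and type I partners of simple epithelia. KRT8 read 84.2, 81.3 and 75.8 FPKM in untreated and 58.8, 55.0 and 56.5 FPKM in treated libraries. KRT18 read 39.6, 38.8 and 36.2 FPKM against 28.3, 27.2 and 27.9 FPKM. Both showed a step between groups larger than the spread within either. Their log2 fold changes were close, at -0.56 ± 0.06 (SE) for KRT8 and -0.52 ± 0.05 (SE) for KRT18, with limma adjusted p = 0.000152 and 0.00013. The ratio of KRT8 to KRT18 was 2.11 ± 0.0193 in untreated and 2.04 ± 0.0356 in treated libraries. The ratios of the groups did not overlap but lay within a narrow band, from 2.02 to 2.13 in all 6 libraries.

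KRT80, a type II keratin found near desmosomes in many epithelia, read 40.03, 41.6 and 37.7 FPKM without and 31.0, 28.4 and 29.6 FPKM with phosphoramidon. It fell by 0.48 ± 0.05 (SE) on the log2 scale (limma adjusted p = 0.000244), and in deposited FPKM its level was close to that of KRT18. In untreated cells the values of KRT80 and KRT18 overlapped, and so did those of DSC3 and KRT7. No other neighbours overlapped in the order KRT19, VIM, KRT8, KRT80, KRT18, JUP, SFN, DSC3, KRT7 and KRT81. With phosphoramidon the order in FPKM was the same and no neighbours overlapped.

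**Figure D2:**
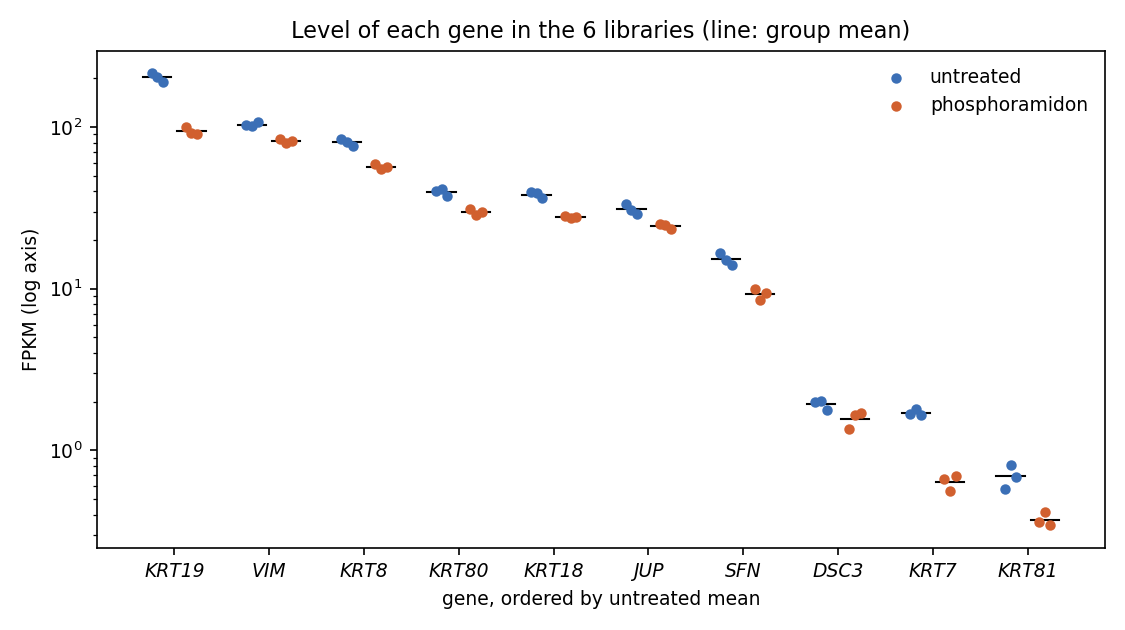
FPKM (log axis) of each gene in the 3 untreated (blue) and 3 phosphoramidon (orange) libraries, ordered by the untreated mean, with a line at each group's mean. For every gene the 3 treated values lie below the 3 untreated ones, from KRT19 at about 203 against 94.2 FPKM down to KRT81 at 0.691 against 0.374 FPKM.

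The order depends on the length behind each value. The FPKM of KRT8 were divided by 6881 bases, the merged exons of all its GENCODE 29 transcripts, whereas its principal transcript has 2126 bases. Per kilobase of principal transcript, and in the same units, KRT19 stood at 341 ± 22.0 and KRT8 at 260.3 ± 13.7 in untreated cells, with VIM at 251 ± 8.44. On that scale KRT18 lay well above KRT80, at 75.1 ± 3.46 and 45.0 ± 2.21 in untreated cells. In treated cells these were 54.7 ± 1.03 and 33.55 ± 1.43. With phosphoramidon the order on that scale was VIM (198 ± 5.38), KRT8 (184 ± 6.30) and KRT19 (158 ± 9.26), with no overlap between them. KRT19 was therefore the highest of the 10 genes in untreated cells on both scales, and in treated cells on the deposited scale alone. The scale treats every fragment of a gene as coming from its principal transcript, which was not tested. It was chosen after the data were seen.

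The keratin pool narrowed in amount and changed in make-up. Summed over the 23 type I keratins in the files, levels were 260.3, 249.8 and 231 FPKM in untreated and 135, 126 and 125 FPKM in treated libraries. The 15 type II keratins summed to 127, 126 and 117 FPKM against 91.3, 85.0 and 87.7 FPKM. The ratio of type I to type II thus went from 2.002 ± 0.0391 to 1.46 ± 0.0335, with no overlap. KRT19 held 54.7 ± 0.615% of all keratin FPKM in untreated and 43.5 ± 0.989% in treated cells. The share of KRT8 was 21.7 ± 0.1002% against 26.2 ± 0.314%, that of KRT18 10.3 ± 0.0996% against 12.9 ± 0.336%, and that of KRT80 10.7 ± 0.370% against 13.7 ± 0.227%. The shares of these 3 genes were higher in every treated library than in any untreated one. Shares are parts of a total, and all 3 genes fell in level. Their larger shares thus follow from the steeper fall of KRT19 and are no separate result. KRT19 to KRT18 was 5.31 ± 0.110 against 3.38 ± 0.164, and KRT7 to KRT8 was 0.0213 ± 0.00119 against 0.0113 ± 0.001004. These levels depend on length too. Per kilobase of principal transcript, over the 6 keratins of the list, type I to type II was 1.34 ± 0.0180 against 0.972 ± 0.0226, where the deposited FPKM of the same 6 gave 1.97 ± 0.0399 against 1.39 ± 0.0346. On that scale KRT19 held 46.9 ± 0.442% against 36.6 ± 0.863% and KRT8 35.9 ± 0.155% against 42.5 ± 0.465%, so that KRT8 was the larger in treated cells. KRT8 to KRT18 was then 3.47 ± 0.0316 against 3.36 ± 0.0584. The direction of each difference between the groups was the same on both scales. For the ratios between single genes this was fixed by arithmetic, since each gene was rescaled by the same factor in every library.

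**Figure D3:**
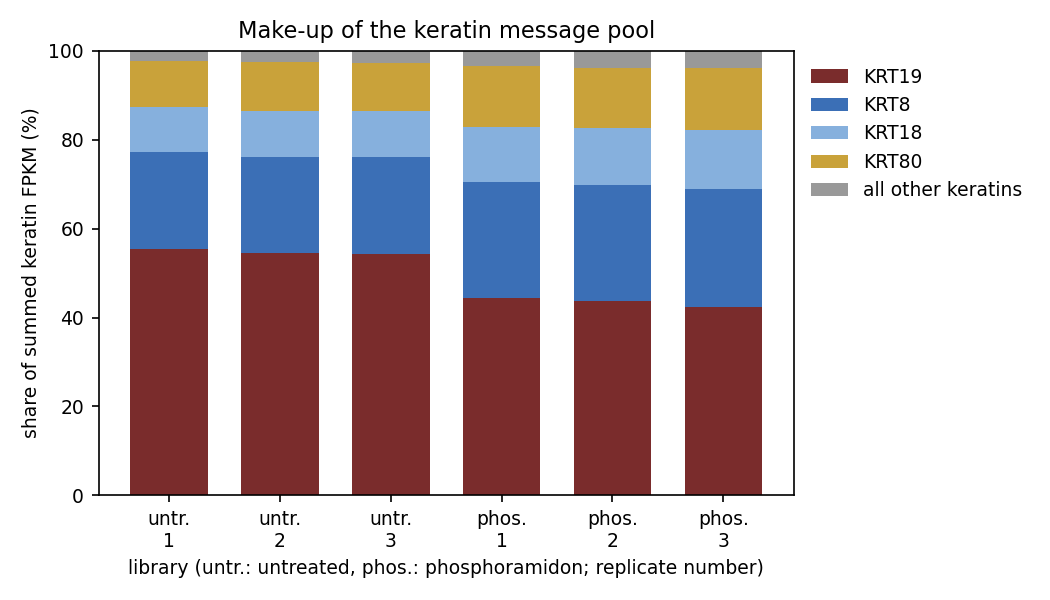
Share of the summed keratin FPKM (y axis, %) taken by KRT19, KRT8, KRT18, KRT80 and all other keratins in each of the 6 libraries. KRT19 holds 54.3 to 55.4% in the untreated libraries and 42.4 to 44.4% in those with phosphoramidon.

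Sums and ratios within a library were tested by exact permutation, two-sided, where 3 against 3 cannot give a p below 0.1. Of the 11 tested, 10 had no overlap between groups and reached that smallest p (adjusted p = 0.11 for each), so none could pass 0.05. Every sum and ratio holds genes of the list, none of which overlapped between groups, so this count is no separate result. Among single tested genes 49.7% did not overlap in either direction.

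The 6 keratins on the list held 96.6 to 98.3% of all keratin FPKM in each library. Of 38 keratins in the files, 12 were tested, and of these 0 rose (16.1% of all tested genes did) and 6 fell, the 6 described here. KRT10, a keratin of differentiated epidermis and the highest of the others, was at 4.52 ± 0.202 against 5.12 ± 0.451 FPKM (log2 fold change 0.11 ± 0.07, SE, limma adjusted p = 0.263), with overlapping groups. KRT15 was at 0.740 ± 0.0174 against 0.701 ± 0.0984 FPKM, and KRT34, KRT86 and KRT79 lay below 0.4 FPKM on average in both groups and were not called. Without phosphoramidon replicate 1 KRT34 was called lower (-0.84, limma adjusted p = 0.0471). With a constant prior KRT86 was called lower (-0.32, limma adjusted p = 0.0303). The 95% intervals of the log2 fold change ran from -0.05 to 0.28 for KRT10 and from -0.46 to 0.20 for KRT15.

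KRT81, a type II keratin of hair, was the lowest of the 10 genes. Untreated libraries read 0.574, 0.810 and 0.689 FPKM and treated ones 0.361, 0.416 and 0.344 FPKM, from 26 to 38 fragments against 13 to 20. The treated values were all lower, but each rests on few fragments. The log2 fold change was -0.78 ± 0.16 (SE) with limma adjusted p = 0.00596, and with a pseudocount of 1 it was -0.32. KRT81 shares long stretches with KRT86, a hair keratin of the same cluster at 0.271 ± 0.0335 against 0.205 ± 0.00714 FPKM (log2 fold change -0.32 ± 0.15, SE, limma adjusted p = 0.141). Their coding sequences in GENCODE 29 matched at 93.6% of aligned bases and shared an exact run of 605 bases. A stretch of 120 bases of each coding sequence, from base 565 to base 684 counted from the start codon, is printed as an example. It is more alike than the coding sequences as a whole, and untranslated parts were not compared. Capitals mark the 2 positions that differ.
KRT81: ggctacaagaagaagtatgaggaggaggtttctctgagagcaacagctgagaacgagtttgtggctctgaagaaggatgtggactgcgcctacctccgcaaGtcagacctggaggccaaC
KRT86: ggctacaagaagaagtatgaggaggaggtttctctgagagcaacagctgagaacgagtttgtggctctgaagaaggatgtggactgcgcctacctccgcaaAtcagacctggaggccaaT
How the authors treated reads that match both genes is not given in the sources used here, so the split between KRT81 and KRT86 is uncertain. Between KRT8 and KRT7, KRT8 and KRT18, and KRT18 and KRT19 the longest shared runs were 41, 15 and 17 bases.

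KRT8 and KRT18 lie side by side on chromosome 12 (52897187 to 52949954 on the minus strand and 52948871 to 52952901 on the plus strand, GRCh38), and their annotated exons share 525 bases. Whether strand was used in counting is not given, so reads there cannot be assigned to one gene with certainty. Both genes also have many processed pseudogenes. The 26 KRT8 pseudogenes in the files held 0.968 to 1.48% of the fragments of KRT8 and its pseudogenes together, the 35 of KRT18 held 1.535 to 3.84%, and the 2 of KRT19 held up to 0.0374%. KRT7 (chromosome 12, 52232520 to 52252186), KRT80 (52168996 to 52192000) and KRT81 (52285913 to 52291534) belong to the same type II cluster, and KRT19 lies on chromosome 17 (41523617 to 41528308).

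VIM (chromosome 10, 17228259 to 17237593) read 103, 101 and 108 FPKM in untreated and 84.0, 79.6 and 81.7 FPKM in treated libraries. The treated libraries were all lower by a similar margin. The log2 fold change was -0.40 ± 0.05 (SE), with a 95% interval from -0.52 to -0.29 and limma adjusted p = 0.00054. Keratins fell more than VIM in sum: all keratins to VIM was 3.58 ± 0.3005 in untreated and 2.65 ± 0.0461 in treated libraries. Untreated replicate 3 was the lowest of its group for 8 of the 10 genes but the highest for VIM, and its ratio of 3.24 was the lowest untreated one. KRT19 held 54.7% of keratin FPKM in untreated cells and fell by 1.17 on the log2 scale, so the ratio depends heavily on KRT19. The log2 fold changes of KRT8, KRT18 and KRT80 (-0.56, -0.52 and -0.48) lay much nearer to that of VIM. A ratio to VIM without KRT19 was not tested.

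Not all filament genes shared this direction. Of 13 tested genes among other intermediate filaments, 4 rose and 3 fell, with a median log2 fold change of 0.03. Those that rose were the synemin gene SYNM (3.28 ± 0.250 to 5.79 ± 0.367 FPKM), the neuronal filament genes INA (47.7 ± 3.04 to 70.8 ± 4.01 FPKM) and NEFL (0.0605 ± 0.0114 to 0.228 ± 0.0484 FPKM), and the nuclear lamin gene LMNB1 (37.3 ± 1.41 to 48.6 ± 0.664 FPKM). Besides VIM, those that fell were the syncoilin gene SYNC (1.87 ± 0.125 to 1.11 ± 0.191 FPKM) and the lamin A/C gene LMNA (20.9 ± 1.93 to 17.3 ± 1.09 FPKM). NES, which encodes nestin, a partner of vimentin, was at 24.6 ± 1.69 against 26.1 ± 0.981 FPKM and was not called (log2 fold change 0.03 ± 0.06, SE). The size for NEFL follows the pseudocount (0.20 with 1 and 1.69 with 0.01), and its call was lost without a filter on low genes (limma adjusted p = 0.0741). The neurofilament gene NEFH (0.15, adjusted p = 0.092) was called higher without untreated replicate 1 (0.21, limma adjusted p = 0.0321), with voom (adjusted p = 0.023) and in undivided FPKM (adjusted p = 0.0081).

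**Figure D4:**
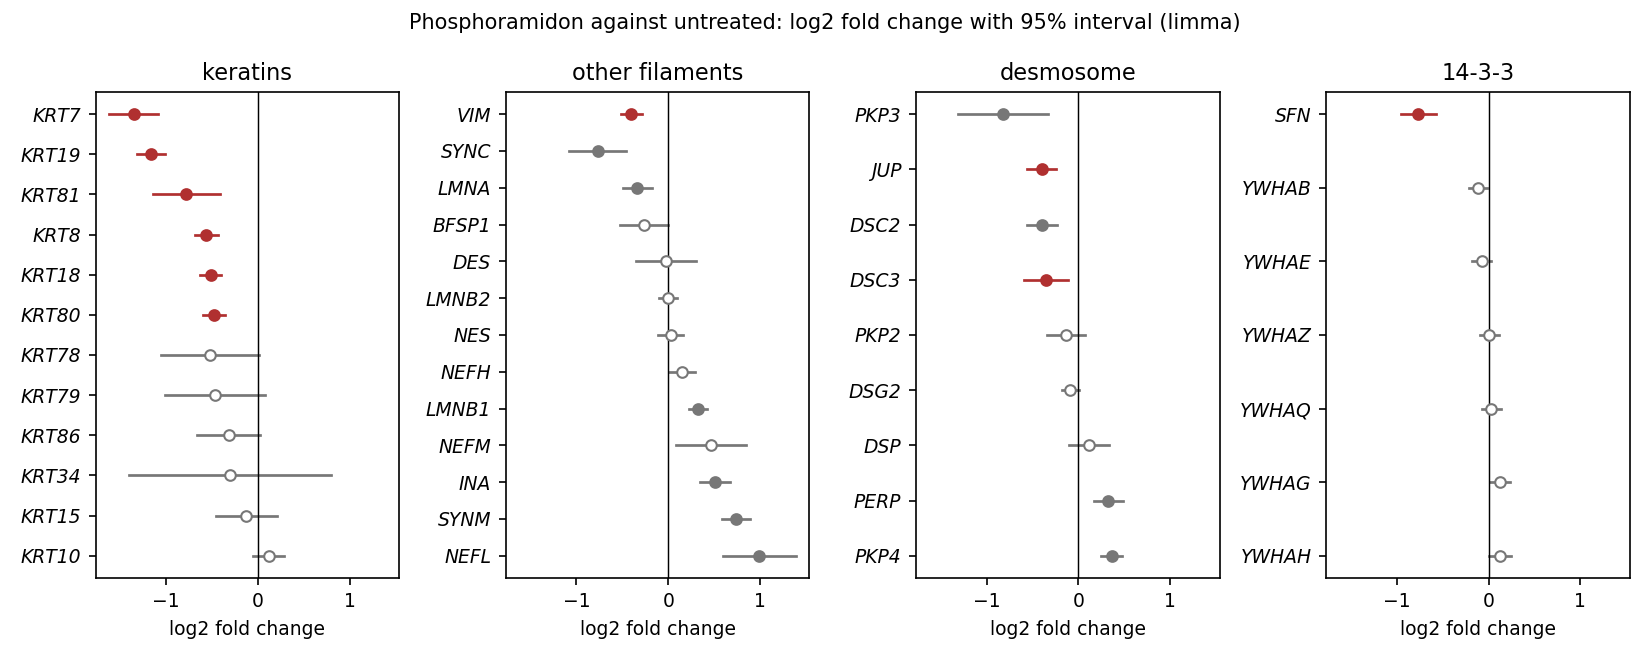
Log2 fold change (x axis) with its 95% interval from limma for tested keratins, other intermediate filament genes, desmosome genes and 14-3-3 genes. Red marks the 10 genes and grey the others, and filled points passed an adjusted p of 0.05; among the other filaments and the desmosome genes, filled points lie on both sides of 0.

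JUP, the catenin shared by desmosomes and adherens junctions (chromosome 17, 41754604 to 41786931), read 33.4, 30.7 and 28.9 FPKM without and 25.1, 24.9 and 23.4 FPKM with phosphoramidon. The untreated values spread more widely than the treated ones but stayed above them. JUP fell by 0.40 ± 0.07 (SE) on the log2 scale (limma adjusted p = 0.00243). Its closest relative CTNNB1, which encodes beta-catenin, was at 39.8 ± 1.37 against 41.1 ± 1.79 FPKM (log2 fold change -0.02 ± 0.04, SE, limma adjusted p = 0.793). The ratio of JUP to CTNNB1 was 0.870, 0.747 and 0.722 in untreated and 0.627, 0.621 and 0.541 in treated libraries. DSP, which encodes desmoplakin, was scarce at 1.86 ± 0.0985 against 2.11 ± 0.153 FPKM and not called, and JUP to DSP was 16.7 ± 0.595 against 11.6 ± 0.610.

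DSC3, a desmosomal cadherin best known from basal layers of stratified epithelium (chromosome 18, 30990008 to 31042815), read 2.001, 2.03 and 1.79 FPKM in untreated and 1.36, 1.65 and 1.69 FPKM in treated libraries. The gap between groups, from 1.79 to 1.69 FPKM, was smaller than the spread within either. Its log2 fold change was -0.35 ± 0.10 (SE) with limma adjusted p = 0.0305, the weakest call among the 10 genes. Leaving out any library other than untreated replicate 3 or phosphoramidon replicate 3 ended the call. The log2 fold change was then -0.31 and -0.34 without untreated replicates 1 and 2 (limma adjusted p = 0.104 and 0.0903), and -0.27 and -0.39 without phosphoramidon replicates 1 and 2 (adjusted p = 0.0852 and 0.0513). Its paralogue DSC2 fell from 4.13 ± 0.134 to 3.25 ± 0.245 FPKM (limma adjusted p = 0.00339), -0.40 ± 0.07 (SE) on the log2 scale. The ratio of DSC3 to DSC2 was 0.471 ± 0.0446 against 0.481 ± 0.0273, with overlapping groups (exact permutation p = 0.8, adjusted p = 0.8).

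Of 9 tested desmosome genes, 4 fell (DSC2, DSC3, JUP and the plakophilin PKP3) and 2 rose, with a median of -0.14. Apart from DSC3 and JUP, which were chosen for the list, 2 of 7 fell. Over all tested genes 16.7% were called lower and 16.1% higher. PKP3 fell from 0.704 ± 0.0400 to 0.385 ± 0.132 FPKM, a call lost without untreated replicate 1 or 3 (limma adjusted p = 0.0616 and 0.0513). Without untreated replicate 1 the desmosome genes called lower were thus 2. The genes that rose were the plakophilin relative PKP4 (13.5 ± 0.496 to 18.1 ± 0.522 FPKM) and the membrane protein gene PERP (7.15 ± 0.466 to 9.38 ± 0.308 FPKM), whose call was lost without a filter (limma adjusted p = 0.055). DSG2, desmoglein 2, a desmosomal cadherin, was at 36.3 ± 1.41 against 35.6 ± 1.02 FPKM and not called.

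SFN (chromosome 1, 26863138 to 26864457) read 16.6, 15.03 and 14.02 FPKM in untreated and 10.02, 8.50 and 9.42 FPKM in treated libraries. Every treated value was well below the lowest untreated one. Its log2 fold change was -0.76 ± 0.08 (SE), with a 95% interval from -0.96 to -0.57 and limma adjusted p = 0.000284. The 6 other 14-3-3 genes (YWHAB, YWHAE, YWHAG, YWHAH, YWHAQ and YWHAZ) were far more abundant, at 80.6 to 229.8 FPKM in untreated cells, and 0 of them were called. Their log2 fold changes ran from -0.11 to 0.12. Over all tested genes 32.8% were called in either direction. When the FPKM were not divided by library factors, YWHAG, YWHAH and YWHAQ were called higher (0.18, 0.18 and 0.09). YWHAG was also called higher without untreated replicate 1 (0.15, limma adjusted p = 0.0435), with the stricter filter (0.0433), voom (0.0253) and the replicate block (0.0415). YWHAH was called higher with voom too (limma adjusted p = 0.0443). In the other direction, YWHAB was called lower with voom (-0.12, limma adjusted p = 0.012) and with TMM factors over all genes (-0.13, 0.045). SFN relative to their sum was 0.0170 ± 0.00147 in untreated and 0.00984 ± 0.000705 in treated libraries.

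**Figure D5:**
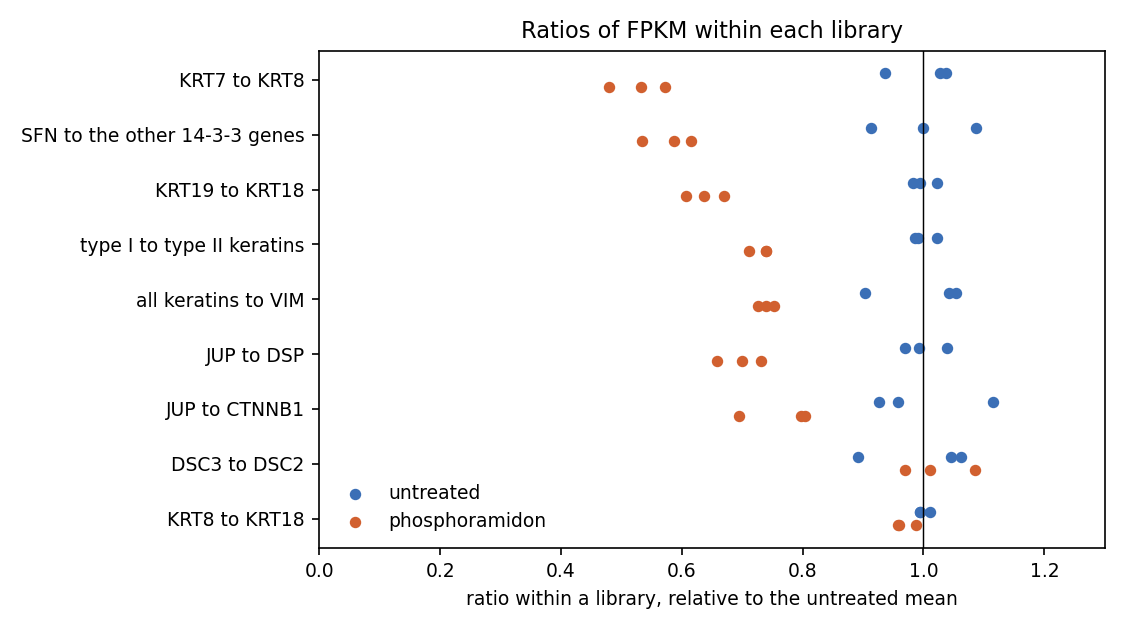
Ratios of FPKM within each library (x axis, relative to the untreated mean, so 1 is the untreated mean) for 3 untreated (blue) and 3 phosphoramidon (orange) libraries. KRT8 to KRT18 stays near 1 and DSC3 to DSC2 overlaps between groups, while KRT7 to KRT8, SFN to the other 14-3-3 genes and KRT19 to KRT18 lie furthest to the left in treated libraries.

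Promoter windows from RefSeq (GRCh38.p14, 250 bases before to 50 after a gene's start) were at hand for 5 of the 10 genes, KRT8, VIM, SFN, DSC3 and JUP. The box GGGCGG, a known binding sequence of SP1, was found on either strand in 3 of these 5 windows and in 45.0% of all 35116 windows. The AP-1 site TGACTCA was found in 0 of the 5 and in 4.95% of all windows. For the TATA box TATAAA these figures were 0 of the 5 and 11.5%, and for the E-box CACGTG they were 0 of the 5 and 7.26%. CATTCC, the core bound by TEAD factors, was found in 1 of the 5, KRT8, and in 14.03% of all windows. The 150 bases before the RefSeq start are printed for the 3 genes with the SP1 box, so that the sequences can be compared, with the box or its complement CCGCCC in capitals.
SFN, chr1:26862999-26863148, plus strand: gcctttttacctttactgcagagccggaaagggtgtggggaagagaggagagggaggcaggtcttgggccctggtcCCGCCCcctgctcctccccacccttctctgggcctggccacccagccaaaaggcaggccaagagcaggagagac
VIM, chr10:17228091-17228240, plus strand: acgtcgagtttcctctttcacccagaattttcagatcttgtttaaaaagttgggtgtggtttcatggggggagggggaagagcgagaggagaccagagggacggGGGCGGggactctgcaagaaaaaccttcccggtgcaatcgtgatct
JUP, chr17:41786712-41786861, minus strand: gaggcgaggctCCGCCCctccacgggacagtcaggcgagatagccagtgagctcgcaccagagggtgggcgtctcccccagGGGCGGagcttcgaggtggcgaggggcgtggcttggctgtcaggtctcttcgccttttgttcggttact
The box begins 74 bases before the RefSeq start in SFN and 46 in VIM, and 139 and 69 in JUP. These starts differ from the gene bounds given above. The JUP stretch lies wholly inside those bounds, as do the last bases of the SFN stretch. A match describes letters only, and no binding was measured.

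Genes that work with these filaments moved in both directions. Among 10 filament linkers and keratin-associated genes, PLEC, which encodes the cytolinker plectin, fell (28.02 ± 3.30 to 19.99 ± 0.594 FPKM) and DNAJB6, which encodes a chaperone that binds KRT18, rose (8.11 ± 0.173 to 10.9 ± 0.418 FPKM), with a median of 0.08. TCHP, trichoplein, was called higher without phosphoramidon replicate 3 (0.33, limma adjusted p = 0.0289), with voom (0.00869), with the stricter filter (0.0407) and in undivided FPKM (0.0186). EPPK1 (0.39, limma adjusted p = 0.0689) was called higher with voom (0.0017) and a constant prior (0.0205). In undivided FPKM (0.044) and with a pseudocount of 1 (0.0478) EPPK1 was called higher too. Among 9 hemidesmosome genes, 5 fell, among them the laminin chain gene LAMB3 (10.9 ± 0.471 to 5.99 ± 0.494 FPKM), PLEC, the integrin ITGB4 (-0.37) and the tetraspanin CD151 (-0.24). ITGA6, the integrin partner of ITGB4, rose from 2.76 ± 0.0678 to 4.69 ± 0.403 FPKM. The median over these 9 genes was -0.24. For both lists, the shares over all tested genes were 16.7% lower and 16.1% higher. Values in parentheses after a gene, here and below, are log2 fold changes.

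Of 8 tested genes of the cornified envelope and squamous differentiation, 0 rose and 3 fell, with a median of -0.31. Over all tested genes 16.1% were called higher and 16.7% lower. S100A2, a calcium-binding protein of basal keratinocytes, fell from 27.3 ± 1.15 to 9.56 ± 1.05 FPKM (limma adjusted p = 4.22e-06), -1.57 ± 0.08 (SE) on the log2 scale. DMKN, dermokine, fell from 6.97 ± 0.241 to 5.12 ± 0.196 FPKM, and SBSN, suprabasin, from 1.38 ± 0.141 to 0.871 ± 0.155 FPKM. The envelope plakins EVPL and PPL were at 2.21 ± 0.177 against 2.28 ± 0.192 and 0.887 ± 0.181 against 0.841 ± 0.155 FPKM and were not called. Without untreated replicate 3 the transglutaminase TGM1 was called lower too (-0.67, limma adjusted p = 0.0447).

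Among 15 tested epithelial and squamous transcription factors, 3 rose and 4 fell (16.1% and 16.7% over all tested genes), with a median of -0.05. GRHL1, a grainyhead factor, rose from 0.546 ± 0.0246 to 1.01 ± 0.0820 FPKM and TFAP2A from 4.39 ± 0.130 to 6.02 ± 0.239 FPKM. MAF fell from 10.4 ± 0.576 to 7.83 ± 0.181 FPKM and CEBPA from 1.63 ± 0.120 to 1.20 ± 0.0510 FPKM. The calls of TFAP2C (0.58), ESRP1 (-0.61) and CEBPB (-0.30) were near the threshold. Each was lost without untreated replicate 2 (limma adjusted p = 0.129, 0.0565 and 0.0816) and without phosphoramidon replicate 1 (adjusted p = 0.117, 0.0722 and 0.0722). TFAP2C and ESRP1 were also lost without untreated replicate 1 (adjusted p = 0.15 and 0.0575) and phosphoramidon replicate 3 (0.0908 and 0.0659), ESRP1 and CEBPB without untreated replicate 3 (0.0743 and 0.0685), and TFAP2C and CEBPB without phosphoramidon replicate 2 (0.0936 and 0.0918). KLF5 and ELF3, regulators of epithelial keratin genes, were at 8.27 ± 0.144 against 8.33 ± 0.336 and 9.93 ± 0.417 against 9.98 ± 0.404 FPKM.

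Of 13 cadherin and catenin genes, 3 rose and 4 fell (16.1% and 16.7% over all tested genes), with a median of -0.05. CDH6, a cadherin of the developing proximal tubule, fell from 59.0 ± 1.19 to 29.4 ± 0.894 FPKM and CDH3 from 1.15 ± 0.0390 to 0.603 ± 0.0991 FPKM, while AFDN, afadin, rose from 11.2 ± 0.156 to 14.5 ± 0.387 FPKM. VCL (-0.16), NECTIN3 (-0.22), CDH2 (0.18) and NECTIN1 (0.39) were near the threshold. Without untreated replicate 1 VCL, NECTIN3 and NECTIN1 lost their calls (limma adjusted p = 0.0628, 0.053 and 0.118), and without untreated replicate 2 CDH2 and NECTIN1 did (0.061 and 0.0751). VCL and NECTIN1 lost theirs without untreated replicate 3 (0.052 and 0.0595), phosphoramidon replicate 2 (0.0659 and 0.068) and phosphoramidon replicate 3 (0.0588 and 0.0664). CDH2 and NECTIN1 lost theirs without phosphoramidon replicate 1 (0.0542 and 0.135), and CDH2 also without phosphoramidon replicate 2 (0.0833). CDH1, E-cadherin, was low at 0.391 ± 0.0312 against 0.501 ± 0.114 FPKM and was not called.

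Among 7 tested factors of the epithelial-mesenchymal transition, which repress epithelial genes, 0 rose and 4 fell: SNAI2 (13.1 ± 0.444 to 8.02 ± 0.853 FPKM), SNAI1 (19.5 ± 1.49 to 14.4 ± 0.907 FPKM), ZEB2 (-0.40) and TCF3 (-0.25), with a median of -0.32. Over all tested genes 16.1% were called higher and 16.7% lower, and with so few genes these counts are a description. ZEB1 (0.30, limma adjusted p = 0.102) was called higher with voom (0.32, adjusted p = 0.0441) and without phosphoramidon replicate 1 (0.42, adjusted p = 0.0322). TCF4 (-0.32, limma adjusted p = 0.126) was called lower with voom (-0.44, adjusted p = 0.00176) and with a constant prior (adjusted p = 0.0119).

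Markers of other cell types were summed as a check. The 8 fibroblast markers summed to 60.9 to 65.8 FPKM in untreated and 23.5 to 25.04 FPKM in treated libraries, carried by LUM (53.0 ± 2.85 to 19.9 ± 0.553 FPKM) and COL1A1 (10.1 ± 0.676 to 4.12 ± 0.241 FPKM). COL3A1 was listed at 0 in all libraries and PDGFRA reached 0.0169 FPKM. All 4 tested fibroblast markers fell, DCN (-1.23) and PDGFRB (-0.60) among them, and their part in the fall of VIM was not tested. Over all tested genes 16.7% were called lower. The PDGFRB call was lost without untreated replicates 1, 2 and 3 (limma adjusted p = 0.123, 0.0835 and 0.0528) and phosphoramidon replicates 1 and 3 (0.106 and 0.0959). Endothelial markers summed to 0.251 FPKM at most and immune markers to 0.986 FPKM. Among 7 collecting duct markers AQP3 rose (0.73) from 0.133 ± 0.0721 to 0.285 ± 0.0301 FPKM, a call lost without any library other than untreated replicate 2 (limma adjusted p = 0.0655 to 0.118). Among 8 keratinocyte markers 3 were tested and 0 were called.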

How the data were processed

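RNA-seq was done on total RNA of 3 untreated and 3 phosphoramidon libraries, grouped by the treatment label. The authors deposited 1 table of FPKM per library, a unit read from the numbers themselves. Tools listed in the submitters' processing notes, without role or order, include the aligner HISAT2 2.1.0, the read trimmer Trimmomatic 0.38 and the counter featureCounts 1.6.0, on GRCh38. The annotation release and any use of strand are not given. Fragments were recovered from the step of FPKM times gene length: 79.0% of 34623 genes above 0 gave whole fragments within 0.05 at the GENCODE 29 merged exon length, and for the others a length was searched, so 99.8% is no check. Genes with at least 10 fragments in at least 3 libraries were tested. FPKM were divided by TMM factors (30% of M and 5% of A values trimmed) and tested as log2(FPKM + 0.1) by limma 3.58.1 (R 4.3.3) with a trended, robust prior, on the group alone, after a run on simulated data. Fold changes on this scale understate low genes, while printed FPKM are as deposited. Names came from a gene name table (37892 IDs matched). Lists were named in full by a rule: all 10 genes, up to 4 called genes per list with the lowest p, all where 5 or fewer were called in a direction, and the 5 highest other keratins. The genes and lists were chosen with earlier results of these data known. Alternatives were another pseudocount, filter, scaling, prior, test, a replicate block and leaving out each library. Uncalled genes given for comparison were chosen after their values were seen. Proteins were not analysed here, and 1 gene that the rule names is not reported here.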

Additional observations from a re-analysis of the deposited data

How the results depend on the processing

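Under 16 alternatives to the test (15 for KRT81, which the stricter filter of 1 FPKM in 3 libraries leaves out), all 10 genes kept a negative log2 fold change, and 9 of them, all but DSC3, kept their call wherever tested. The largest limma adjusted p of these 9 was 0.0434, for KRT81 without a filter. DSC3 lost its call in 7 alternatives, with adjusted p from 0.00206 with voom to 0.104 over all of them: besides 4 left-out libraries, without a filter (0.0878), as deposited (0.0699) and with the replicate block (-0.35, adjusted p = 0.0522). Leaving out each library left 9 or 10 of the 10 genes called lower and 0 higher, and 1744 to 2243 genes called higher and 2060 to 2576 lower among all tested, against 2598 and 2704 with all libraries. Without a filter 1340 genes were higher and 1914 lower. As deposited, 3647 were higher and 2169 lower, and the 10 genes gave 9 lower. The replicate block gave 2652 higher and 2721 lower. The deviations of same-numbered libraries were hardly correlated (0.111, -0.021 and -0.012). Whether these libraries were handled as pairs is not given. The log2 difference in DSC3 to DSC2, which was 0.03 with all libraries, ran from -0.0467 to 0.0805 when 1 library was left out, and was negative without untreated replicate 3 (-0.0467) and without phosphoramidon replicate 3 (-0.0094). With TMM factors over all genes, added after the data were seen, 2325 genes were higher and 2911 lower. Counts within lists that moved by more than 1.5 times all lay between 0 and 4 genes. Without a filter desmosome genes went from 2 to 1 higher and from 4 to 2 lower, transcription factors from 4 to 2 lower and cadherin genes from 3 to 1 higher. With the stricter filter transcription factors went from 3 to 1 higher, filament linkers from 1 to 2 and 14-3-3 genes from 0 to 1. As deposited, linkers went from 1 to 3 higher and 14-3-3 genes from 0 to 3. With voom linkers went from 1 to 3 higher, factors of the epithelial-mesenchymal transition from 0 to 1, and 14-3-3 genes from 0 to 2 higher and from 1 to 2 lower. TMM over all genes gave 2 lower 14-3-3 genes, a pseudocount of 1 or a constant prior 2 higher linkers, and the replicate block 1 higher 14-3-3 gene and 1 higher transition factor (ZEB1, adjusted p = 0.0314). With 1 library left out, transcription factors went from 4 to 2 lower (untreated replicate 2 or 3, phosphoramidon replicate 1), cadherin genes from 3 to 1 higher (untreated replicate 2, phosphoramidon replicate 1 or 2) and from 4 to 2 lower (untreated replicate 1), and desmosome genes from 4 to 2 lower (untreated replicate 1). There was then also 1 higher 14-3-3 gene (untreated replicate 1), 1 higher transition factor (phosphoramidon replicate 1) and a second higher linker (phosphoramidon replicate 3). With 13 to 38 fragments in a library, the size of the change in KRT81 is poorly fixed.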

Other observations

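The genes whose values over the 6 libraries most resembled those of KRT19 were sought among tested genes with a symbol and a mean of at least 50 fragments, by the smallest root mean square difference of log2 values centred on each gene's own mean. The 5 closest were TNC, the matrix glycoprotein tenascin C (difference 0.04), NCKAP5 (0.05), the platelet receptor gene PEAR1 (0.05), GPNMB, a transmembrane glycoprotein (0.05), and the Notch ligand JAG1 (0.06). TNC went from 64.2 ± 3.52 to 30.4 ± 0.542 FPKM, NCKAP5 from 10.2 ± 0.153 to 4.62 ± 0.156 FPKM and JAG1 from 11.7 ± 0.472 to 5.65 ± 0.172 FPKM. GPNMB went from 4.07 ± 0.101 to 1.93 ± 0.1003 FPKM and PEAR1 from 1.02 ± 0.0529 to 0.428 ± 0.0315 FPKM. None of the 5 is a filament or junction gene, and the likeness is mostly that of the step between the groups.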
